A study of Drosophila melanogaster with 38 samples.

Results

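The Hedgehog pathway genes examined here are hh, ptc, smo, ci, fu, cos and Su(fu), the 7 core components of Hedgehog signaling in Drosophila melanogaster. They were chosen by name, and each was searched for MSL2 intervals that overlap the gene body or the 1 kb to either side. The rule found 2 intervals, of 2524 distinct intervals in the series, at 2 of the 7 genes, ptc and fu. The other 5 genes carried 0. By the same rule 17.7% of all annotated genes and 19.8% of protein-coding genes carried at least 1. The series profiled chromatin of larvae in the third instar by immunoprecipitation and sequencing in 38 libraries, split evenly between the sexes (19 each), and 12 of the 38 are inputs. MSL2 was recovered through a FLAG tag, in 2 libraries (1 per sex), from larvae carrying msl-2227/msl-2km, mutant alleles of msl-2, together with the driver tub-Gal4 and the transgene UAS-msl-2::3Flag. The control for the antibody, labelled msl-2227/km / CyO-GFP, had no tag. Libraries from wild type, msl-2 heterozygous and msl-2 null larvae profiled the protein MLE, histones or histone modifications, or were inputs. The tubulin driver is active in most tissues, so the tagged protein need not follow the sex or level of the endogenous one. Females, which normally lack MSL2, carried the transgene too, and no protein level was available. The deposited values are 3 peak lists that name no library, so sexes and genotypes could not be compared, no group has replicates, and no result below carries a test.

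In Hedgehog signaling, the secreted ligand Hh binds the receptor Ptc, which otherwise holds the transmembrane protein Smo inactive. Active Smo acts through the kinesin-like scaffold Cos and the kinase Fu on Ci, a zinc finger transcription factor of the Gli family, which Su(fu) binds and restrains. Without ligand, Ci is phosphorylated and cut into a repressor, and with ligand it activates targets that include ptc itself. In imaginal discs of larvae the pathway patterns the boundary between anterior and posterior compartments. MSL2 is found only in males, as part of the MSL complex, and this complex upregulates genes on their X chromosome. High-affinity sites (HAS) are its main binding sites on X. The HAS list of this series held 159 distinct intervals, 135 of them on X.

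The interval at fu spanned the start sites of a pair of divergent genes, next to a much wider HAS. The fu gene, which encodes the kinase Fused (FBgn0001079, X, 18657755 to 18661204, dm6, plus strand), is 3450 bp long with 1 annotated transcription start site (TSS). Its interval, from the list of X peaks that are not HAS (the other X list), ran from 18657075 to 18657877 and was 803 bp wide. By width it ranked 54 of 680 in that list, whose median is 249.5 bp. It reached from 680 bp before to 122 bp after the fu start. The interval also held both start sites of CG6659, 521 and 469 bp before that of fu and on the opposite strand, and its midpoint was closer to CG6659 (190 bp) than to fu (279 bp). It therefore cannot be assigned to fu alone. The GA repeat, which makes up the center of the sequence that MSL complexes recognize, was searched in each interval as GAGAGAGA, on both strands and with up to 1 mismatch. Further words were the CA repeat CACACACA and the A tract AAAAAAAA, each with up to 1 mismatch. The fu interval held 0 matches of the GA repeat, 1 of the CA repeat and 2 of the A tract. The 300 bases with the most matched bases are printed to show how few there are, with matches of any of these words in capitals. They open the interval and span both CG6659 start sites.
fu interval, X:18657075-18657374, plus strand: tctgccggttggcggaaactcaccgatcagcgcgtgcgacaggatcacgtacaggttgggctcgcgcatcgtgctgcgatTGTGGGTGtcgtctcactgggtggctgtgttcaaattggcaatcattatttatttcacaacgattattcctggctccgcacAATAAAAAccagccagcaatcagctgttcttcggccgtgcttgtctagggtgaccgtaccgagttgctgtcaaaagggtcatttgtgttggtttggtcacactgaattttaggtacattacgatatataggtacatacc

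The nearest HAS ended 1531 bp upstream of the fu body and 851 bp from the fu interval. It spanned 3265 bp (18652959 to 18656223) and had its midpoint in a coding exon. Inside it were 4 matches of the GA repeat, 7 of the CA repeat and 4 of the A tract, counts that are not scaled to its width. Its richest stretch is shown for comparison, with matches of both repeats in capitals. These matches are of the CA repeat, read on the other strand as TG.
HAS next to fu, X:18652959-18653078, plus strand: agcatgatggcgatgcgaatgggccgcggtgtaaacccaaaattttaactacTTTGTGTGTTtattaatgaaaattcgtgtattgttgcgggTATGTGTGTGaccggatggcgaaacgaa
In all, 5 intervals lay within 50 kb of fu, which is the median for protein-coding genes on X (5 intervals). Apart from the fu interval and this HAS, they were a pair of other X intervals of 726 and 210 bp at the starts of Rip11 and Nup35, and a second HAS of 506 bp in an intron 21064 bp upstream, with 5 GA matches.

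The interval at ptc was narrow, covered the start site and held a run of the GA repeat. The ptc gene, which encodes the Hedgehog receptor (FBgn0003892, 2R, 8649649 to 8665223, plus strand), is 15575 bp long with 1 annotated TSS. Its interval of the autosomal list ran from 8649479 to 8649686, a width of 208 bp, which ranked 1010 of 1669 by width against a list median of 234 bp. It reached from 170 bp before to 37 bp after the start of ptc, with its midpoint 67 bp before it, and no other annotated gene overlapped it or had a start within 1 kb of it. A run of 8 overlapping matches of the GA repeat covered the bases from 97 to 76 bp before the start, and 4 matches of the CA repeat lay farther upstream, between 159 and 110 bp before it. The GC content was 57.2%, against a median of 51.9% in the autosomal list, while the fu interval had 39.6%, against 51.2% in the other X list. The rest of the ptc body held no interval, and the only other one within 50 kb lay 49608 bp upstream at the start of Lnpk.

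**Figure D1:**
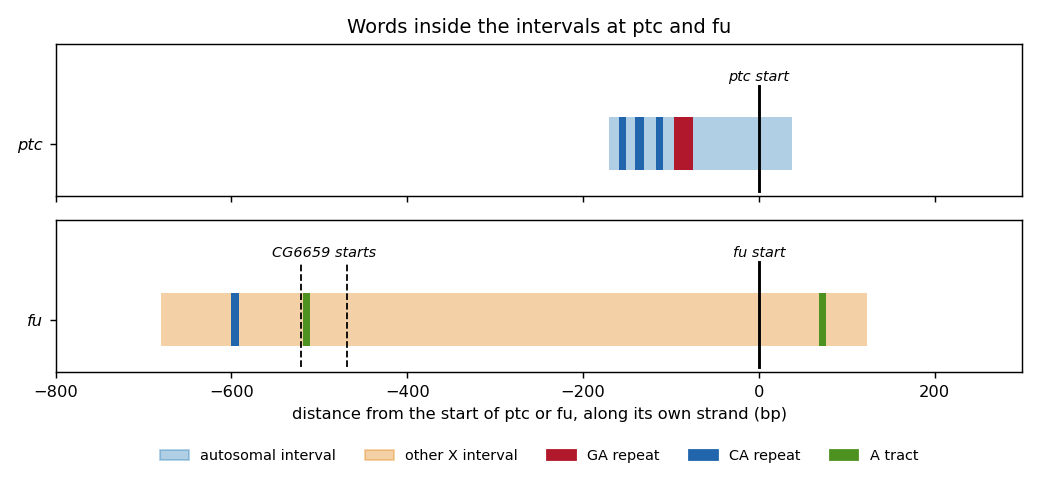
Positions of the intervals at ptc (top, autosomal list) and fu (bottom, other X list) along the strand of each gene, in bp from its start site (solid line). Red, blue and green blocks are matches of the GA repeat, the CA repeat and the A tract with up to 1 mismatch, and dashed lines are the start sites of CG6659. The ptc interval has its GA run from 97 to 76 bp before the start, and the fu interval has none.

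The ligand, the signal transducer, the transcription factor and the remaining Ci regulators carried 0 intervals. For each of these 5 genes the nearest interval was centred within 1 kb of a start site of another gene, and within 500 bp except at ci (736 bp). Over the whole autosomal list, to which these intervals belong, 66.5% were centred within 500 bp of a start site. The hh gene, which encodes the ligand (FBgn0004644, 3R, 23128169 to 23141906, minus strand, 13738 bp), had its nearest interval 10123 bp beyond its 3′ end, 151 bp wide and centred 39 bp from a start of Rassf. On the upstream side the nearest of hh were a pair of intervals of 259 and 168 bp in and at unk, 15051 and 15940 bp away.

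Smoothened is encoded by smo (FBgn0003444, 2L, 277582 to 282167, plus strand, 4586 bp), which came closest of the 5. An interval of 206 bp lay 3452 bp beyond its 3′ end, centred 4 bp from a start of CG3625, the neighbouring gene. Among autosomal protein-coding genes without an interval, 90.9% were farther from their nearest one than smo was, against 71.5% for hh. With a margin of 5 kb smo would also count as a gene with an interval.

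Costa, the kinesin-like scaffold, is encoded by cos (FBgn0000352, 2R, 7382176 to 7387115, minus strand, 4940 bp). Its nearest interval, 153 bp wide, lay 8756 bp upstream at Glo1. The cos neighbourhood was the densest of the 5, with 5 intervals within 50 kb, against a median of 2 for autosomal protein-coding genes. They included one of 865 bp at Eaf and one of 985 bp centred 404 bp from a start of so, an eye determination gene, 20001 and 31338 bp upstream of cos.

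Su(fu), whose product binds Ci (FBgn0005355, 3R, 12689873 to 12691468, minus strand), is the shortest of the 7, with 1596 bp. Its nearest interval was 150 bp wide and lay 30968 bp upstream at Men, and 2 intervals fell within 50 kb. Of autosomal protein-coding genes without an interval, 40.4% were farther from one.

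The ci gene, which encodes the transcription factor (FBgn0004859, 4, 47710 to 57041, minus strand, 9332 bp, with a pair of start sites 710 bp apart), had the most remote position. The nearest interval lay 339162 bp upstream, near dati, and only 0.682% of autosomal protein-coding genes without an interval were farther. Chromosome 4 held 5 intervals in all, 1 of them from the HAS list, and 4 of its 80 protein-coding genes (5%) carried one by the same rule.

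**Figure D2:**
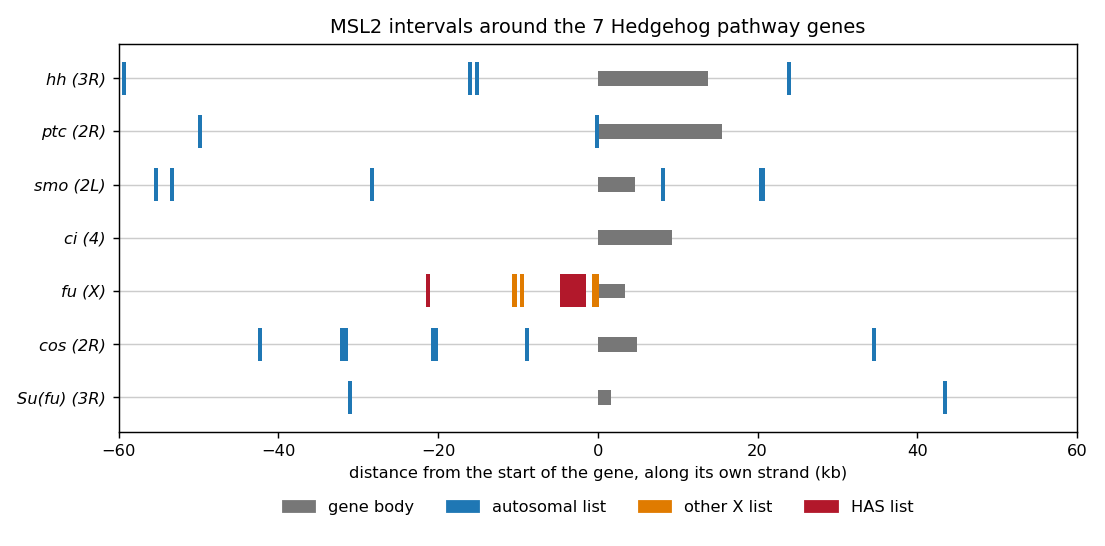
MSL2 intervals within 60 kb of the 7 genes, each drawn along its own strand with its start at 0 (x axis in kb). Gray bars are gene bodies and colored blocks are intervals of the 3 lists, drawn at least 0.5 kb wide to remain visible. Blocks touch the gene only at ptc and fu, the HAS of 3265 bp lies just upstream of the fu interval, and ci has no interval in range.

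The count of 2 of 7 was read against the same count over the genome. By the same rule 3211 of 18164 annotated genes (17.7%) carried an interval, and so did 2756 of 13945 protein-coding genes (19.8%). The share was 38.1% of protein-coding genes on X, where fu lies, and 16.3% on autosomes, where the other 6 lie. It was higher in classes of longer genes. Among autosomal protein-coding genes it was 8.31% under 2 kb, the class of Su(fu), 19.8% from 2 to 10 kb, the class of smo, ci and cos, and 34.8% over 10 kb, the class of hh and ptc. On chromosome 4, where ci lies, the share over all lengths was 5%. Among X genes of 2 to 10 kb, the class of fu, it was 47.3%. The count of 2 of 7 was not tested against these shares.

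**Figure D3:**
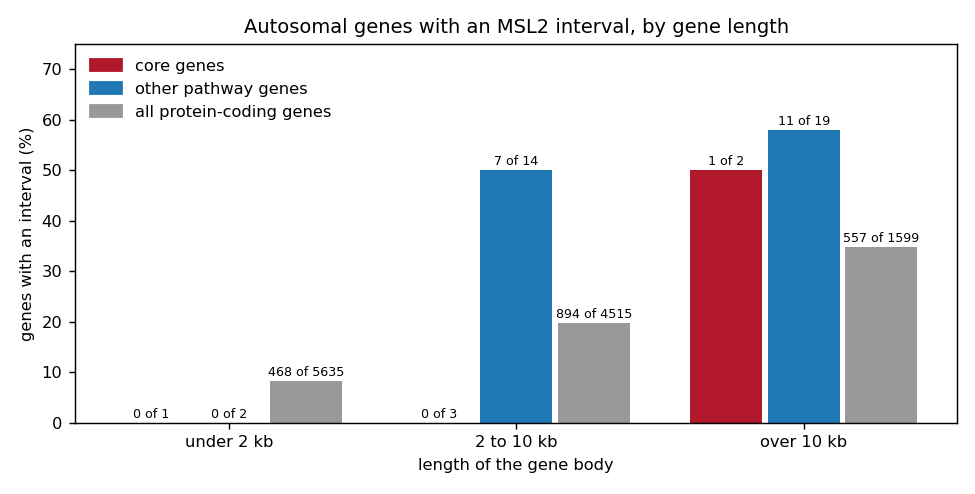
Percentage of autosomal genes with an interval on the body or 1 kb to either side (y axis), by length of the gene body (x axis), for the 6 autosomal core genes (red), the other autosomal pathway genes (blue) and all autosomal protein-coding genes (gray). Counts stand above the bars, and the core genes count 0 of 1, 0 of 3 and 1 of 2. The 0 of 3 includes ci on chromosome 4, where 5% of protein-coding genes of any length carried an interval. In all protein-coding genes the share rises from 8.31% to 34.8% with length.

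The start sites of all 7 core genes were searched for the same words. In windows of 500 bp centred on each TSS, the GA repeat occurred only at ptc among the 7 genes, against 26.8% of 19252 start sites of protein-coding genes. The CA repeat occurred at hh, ptc and the inner start of ci, against 42.9%, and at hh it included 2 exact matches. The A tract occurred at smo, ci, fu, cos and Su(fu), against 79.7%. The Ci and Gli consensus TGGGTGGTC, with up to 1 mismatch, was found at Su(fu) alone, against 7.18% of start sites, and the DRE TATCGATA, a promoter element of housekeeping genes searched with 0 mismatches, at 0 of the 7, against 8.48%. Words can overlap one another. In windows of the same size centred on the intervals, the GA repeat was present at ptc and absent at fu. It was found in 48.8% of windows of the autosomal list and 42.6% of the other X list. Windows 2 kb away on either side, where these were free of intervals, held it in 25.2% and 25.1%. The Ci consensus was absent from both the ptc and the fu window, against 9.41% of autosomal and 9.26% of other X windows. The HAS next to fu held 2 matches of it over its whole 3265 bp. No match says only that these letters are not in the window.

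Other genes that act in the pathway or respond to it were searched as well. A list of 42 such genes was put through the same rule, and 25 of them (59.5%) carried 31 intervals, against 19.8% of protein-coding genes. Of the 7 on X, all carried at least 1, against 38.1%. They comprise 2 genes under 2 kb, 2 of 2 to 10 kb and 3 over 10 kb, classes in which 21.7%, 47.3% and 53.7% of protein-coding genes on X carried one. Of the 35 on autosomes 18 did (51.4%, against 16.3%). Among autosomal ones under 2 kb the count was 0 of 2 (against 8.31%), from 2 to 10 kb it was 7 of 14 (50%, against 19.8%), and over 10 kb it was 11 of 19 (57.9%, against 34.8%). Many of these genes also serve other pathways, and the list was drawn up with earlier results of these data known, so these shares are given as counts. The counts by role rest on 2 to 9 genes each, and the roles differ in gene length and chromosome.

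**Figure D4:**
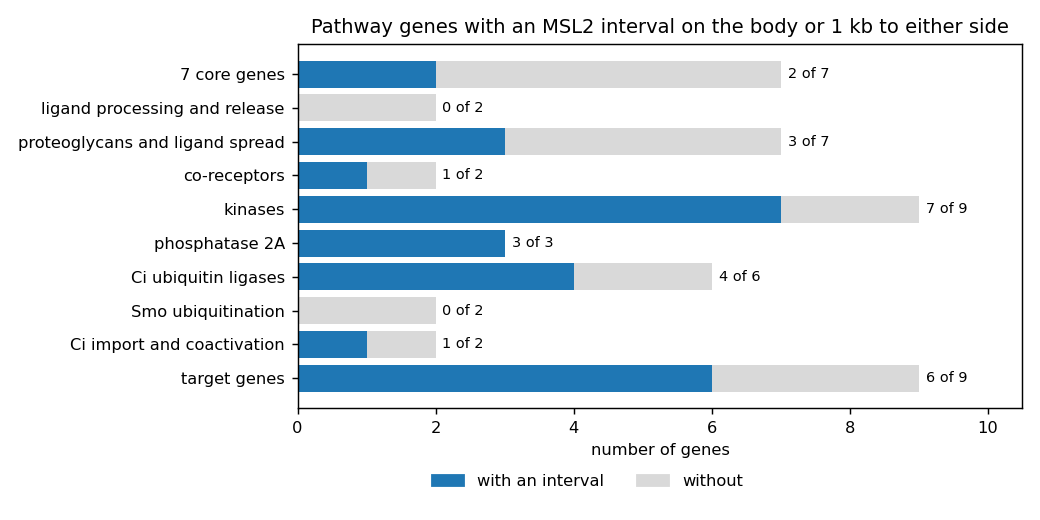
Number of genes (x axis) with an interval on the body or 1 kb to either side (blue) and without one (gray), for the 7 core genes and for each role among the 42 other pathway genes. The core genes count 2 of 7 and all other pathway genes 25 of 42. By the same rule 19.8% of all protein-coding genes carried an interval, 38.1% on X and 16.3% on autosomes. The bars do not account for gene length or chromosome.

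On the side of the ligand, rasp, the acyltransferase that lipid-modifies Hh, and disp, which releases it, carried 0 intervals, with the nearest 18686 and 5884 bp away. Of the genes for heparan sulfate, glypicans and ligand spread, ttv and botv, both of the exostosin family, had intervals of 172 and 150 bp over a start site. At shf, which encodes a secreted factor, the interval of 173 bp lay beyond the 3′ end and 29 bp from a start of Coq7. The remaining 4, sotv, sfl and the glypican genes dally and dlp, had 0. Of the autosomal genes in this role, 1 of 2 from 2 to 10 kb carried an interval, against 19.8% of protein-coding genes of that class. Over 10 kb the count was 1 of 4 (against 34.8%), and shf is an X gene of 2 to 10 kb (47.3%). Of both co-receptor genes, ihog had 0, with the nearest 24124 bp away, while boi on X had 4, the most of any pathway gene. They were 191, 268, 783 and 250 bp wide. The share of protein-coding genes with an interval was 53.7% in the class of boi (X, over 10 kb). It was 19.8% in that of ihog (autosomes, 2 to 10 kb). The interval of 783 bp (2446137 to 2446919) was a HAS centred in a coding exon of boi, and it was also counted for z, the zeste gene, whose start lay 1241 bp from its midpoint. The interval of 191 bp was centred 17 bp from a start of tko, and that of 250 bp was centred 214 bp from a start of z and 278 bp before an inner start of boi.

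Kinases of Smo and Ci carried intervals in 7 of 9 cases. Of the 6 autosomal kinase genes over 10 kb, 4 carried one, against 34.8% of protein-coding genes of that class. The only autosomal one of 2 to 10 kb, dco, carried one too (against 19.8%), as did both on X, CkIalpha and sgg (against 47.3% and 53.7%). The widest were at dco (3R, 31060782 to 31061595, 814 bp) and CkIalpha (X, 12653663 to 12654423, 761 bp), both casein kinase 1 genes, and at sgg, which encodes the kinase GSK3 (X, 2646039 to 2646754, 716 bp). The dco and CkIalpha intervals were centred 22 and 8 bp from a start of their gene. That of sgg lay over an inner start, 12685 bp from the first one. The protein kinase A genes Pka-C1 and Pka-R2 had 1 interval of 209 bp and 2 of 269 and 167 bp. The casein kinase gene gish had 2 of 181 and 208 bp, the first over an inner start 8437 bp from the gene start. The interval of Gprk2 (175 bp) was intronic, 30622 bp from its own start. Pka-R1 and Gprk1 had 0, with Gprk1 392960 bp from the nearest interval.

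Subunits of phosphatase 2A, another enzyme that acts on pathway components, had 1 interval each, and wdb and tws are over 10 kb (34.8%), mts of 2 to 10 kb (19.8%). That of mts, the catalytic subunit (2L, 7826879 to 7828686), was 1808 bp wide and ranked 9 of 1669 in the autosomal list. It also reached within 1 kb of a start of Rack1. Intervals at wdb and tws were 151 and 250 bp. Among the ubiquitin ligase subunits that act on Ci, slmb had 2 (154 and 349 bp), rdx, the adaptor of Cul3, had 1 of 386 bp over a start, and Roc1a 1 of 354 bp. SkpA shared a HAS of 2349 bp with Hmt4-20, whose start was 186 bp from its midpoint, against 990 bp for SkpA. Cul1 and Cul3 had 0. Of the ligase genes on X under 2 kb, 2 of 2 carried an interval, against 21.7% of protein-coding genes of that class. On autosomes the count was 1 of 3 from 2 to 10 kb (against 19.8%) and 1 of 1 over 10 kb (against 34.8%). The HAS of nej, the gene of the Ci coactivator CBP, was 2906 bp wide and centred 11 bp from a start. Tnpo, an importin gene, had 0, with the nearest interval 4293 bp away. The share of protein-coding genes was 53.7% in the class of nej (X, over 10 kb). It was 19.8% in that of Tnpo (autosomes, 2 to 10 kb).

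Target genes carried 1 interval each in 6 of 9 cases. All 9 are autosomal, and the count was 3 of 3 from 2 to 10 kb (against 19.8%), 3 of 5 over 10 kb (against 34.8%) and 0 of 1 under 2 kb (against 8.31%). Each of the 6 intervals held a start site of its gene, as did 14 of all 21 autosomal intervals at the other pathway genes. Over all autosomal intervals within 1 kb of a protein-coding gene, 53.9% held a start site of such a gene. The ptc interval also covers the start, and ptc is itself a target. At wg, the Wnt ligand gene, 354 bp were covered from 340 bp before to 13 bp after the start. The engrailed gene en had 264 bp, from 231 bp before to 32 bp after the start. At ara and caup, neighboring homeobox genes of the Iroquois complex, the intervals were 393 and 473 bp, and at rho, a protease gene of EGF receptor signaling, 339 bp. Ptp61F and lncRNA:CR44842 also overlapped the rho interval or had a start within 1 kb of it. At dpp, which encodes a BMP ligand, an interval of 155 bp covered an inner start, 26365 bp from the first. The genes kn, vn and bap had 0, with the nearest interval 41281, 2250 and 9915 bp away. Counted inside the whole interval, GA matches numbered 14 at en, 6 at caup and 3 at ara, and 0 at wg, rho and dpp. CA matches counted in that way numbered 12 at wg, 5 at dpp, 2 at rho and 2 at caup, and 0 at en and ara. The 500 bp window centred on the en interval, as used in the counts below, did hold the CA repeat.

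Over the 31 intervals of the other pathway genes, 25 were centred within 500 bp of a TSS of any gene, 22 of them of the pathway gene itself. Of the 2328 intervals within 1 kb of any protein-coding gene, the rule by which these were found, 68.1% were centred within 500 bp of a TSS. Both core intervals, at ptc and fu, were also centred within 500 bp of a start. For 11 of the 31 another gene overlapped the interval or had a start within 1 kb, as at fu. They include those at rho, botv (CG15117), Pka-C1 (hoip) and rdx (CG3061), and the wider one at slmb (CG5793). No share over all intervals was set beside this count of shared intervals, so it is a description only. Wider than the median of their own list were 11 of the 21 autosomal intervals, 5 of the 7 other X intervals and 3 of the 3 HAS. In windows of the 21 autosomal intervals the GA repeat was present at 8 (against 48.8% over the whole list), the CA repeat at 18 (against 65.0%), the A tract at 12 (against 74.7%) and the Ci consensus at 3 (against 9.41%). In the 7 other X windows these words were present at 1 (against 42.6%), 3 (61.0%), 5 (76.8%) and 1 (9.26%), in the same order of words. The 3 HAS windows, all on X, held them at 3 (against 74.8%), 3 (59.7%), 2 (73.6%) and 2 (13.2%). Shares and median width of the HAS list cover all 159 HAS, of which 135 lie on X. With so few windows these counts are a description only.

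**Figure D5:**
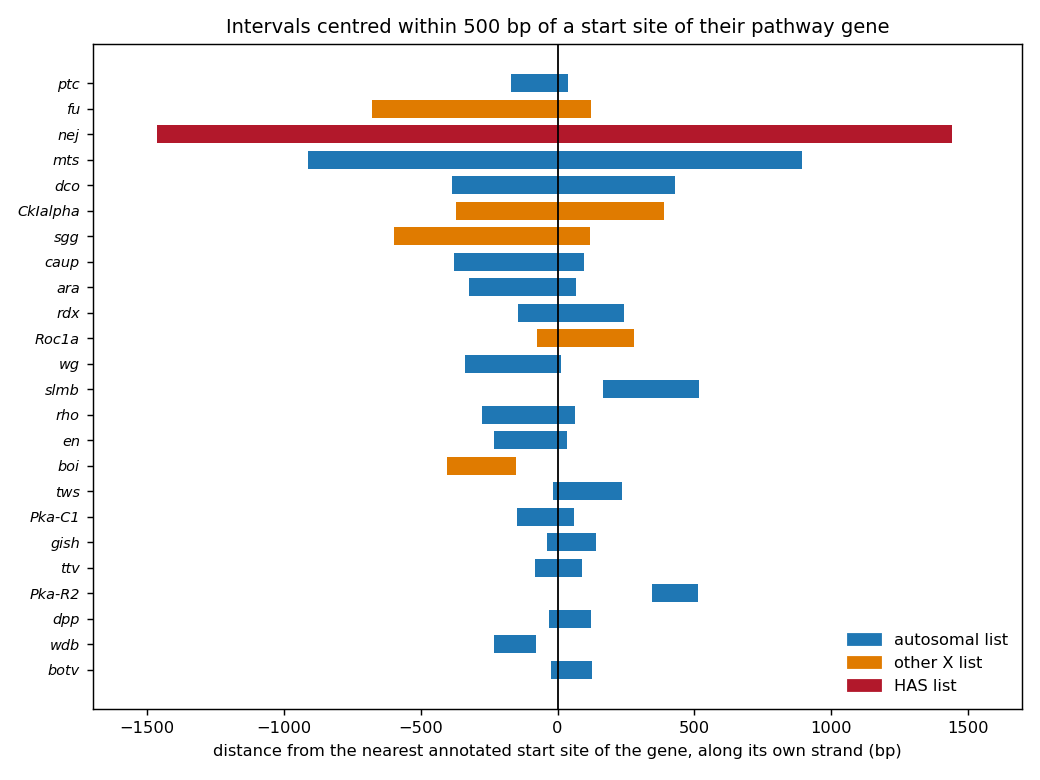
Extent of each interval centred within 500 bp of an annotated start site of its pathway gene, in bp from that start along the strand of the gene (x axis), colored by list. The core genes ptc and fu are on top, followed by the other pathway genes from the widest interval (nej, 2906 bp) to the narrowest (botv, 150 bp). Most bars cross the start site at 0.

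To show how the sequence differs between these intervals, the 120 bases richest in matches of both repeats are printed for the HAS at boi, for wg and for caup, along the strand of each gene and with the matches in capitals. The boi stretch holds GA repeats, read here as TC, the wg stretch holds an almost unbroken CA repeat, and caup holds short stretches of both.
boi HAS, X:2446168-2446287, minus strand: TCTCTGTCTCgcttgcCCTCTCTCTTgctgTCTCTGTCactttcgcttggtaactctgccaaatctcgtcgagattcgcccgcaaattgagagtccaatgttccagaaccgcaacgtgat
wg interval, 2L:7306819-7306938, plus strand: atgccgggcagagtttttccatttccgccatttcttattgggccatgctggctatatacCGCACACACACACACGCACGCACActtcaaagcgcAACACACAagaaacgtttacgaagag
caup interval, 3L:12609432-12609551, plus strand: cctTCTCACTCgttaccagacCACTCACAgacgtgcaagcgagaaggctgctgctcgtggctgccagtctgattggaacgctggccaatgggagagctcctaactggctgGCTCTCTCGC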

How the data were processed

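Of aligners and peak callers, the processing notes of the submitters list MACS2 (2.1.1.20160309.0) and Bowtie2 (2.3.0.1), besides bedtools and the builds dm6 and BDGP6. What each was used for is not stated there. The deposited lists give positions only, and the score column that the authors left in the autosomal list holds a single value (0), so intervals could not be ranked by strength. Depth, controls, thresholds and pooling are unknown. Intervals repeated in the HAS list were counted once (159 of 170 rows), starts were made 1-based, and 16 intervals on Y or unplaced scaffolds were left out. Genes came from Ensembl release 115 (BDGP6, annotation 54), without transposable elements. All 49 genes had the same start and end in RefSeq. Sequence came from the RefSeq genome of the same assembly. No interval ran past a chromosome end, and 0 overlapped one of another list. A promoter interval had its midpoint within 500 bp of a TSS. Scripts ran in Python 3.11.15 and were tested on simulated intervals. The genes and lists were chosen with earlier results of these data known. By the naming rule all members were named, with every other pathway gene that carried an interval, and widths for the 6 with the most intervals. Widths of the rest, and the genes with 0 intervals, were added after their values were seen. Words at start sites, counts of roles by length class, the shares over intervals near protein-coding genes and the sequences at boi, wg, caup and the HAS near fu were added after seeing the data. Alternatives were other margins, midpoints or start sites in place of overlap, no HAS list, other promoter distances, and other windows and mismatches. Annotation in later releases may differ from that used by the authors.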

Additional observations from a re-analysis of the deposited data

How the results depend on the processing

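The count of 2 core genes was the same with a margin of 0, with midpoints, with start sites in place of bodies and without the HAS list, and 3 with a margin of 5 kb, which adds smo. With 5 kb the core genes had 4 intervals in place of 2, by adding the HAS near fu and the interval beyond smo. The share of all genes with an interval was 11.7% with a margin of 0 and 30.5% with 5 kb, in place of 17.7%. The count of other pathway genes lay between 23 and 28 under these margins and rules. Searching whole intervals in place of 500 bp windows, 2 core intervals held the CA repeat in place of 1, since the fu match lies outside the window. The A tract was in 1 core interval window, and in 0 with windows of 200 bp and in 0 with 0 mismatches. Both core intervals stayed within reach of a TSS at 200 bp and 1 kb, but at 200 bp the fu interval did so only through CG6659 (190 bp), since its midpoint lay 279 bp from the fu start. No paired analysis was possible because the lists name no library and no group has replicates. No list gives a strength, so an interval just under the unknown threshold and no binding cannot be told apart.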
